A study of Mus musculus with 8 samples.

Results

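The genes of the MHC class II antigen presentation machinery were followed through restoration of PU.1 in a mouse acute myeloid leukaemia. They are Cd74, which encodes the invariant chain, H2-DMa and H2-DMb1, which encode an alpha and a beta chain of the peptide-exchange factor H2-DM, and H2-Aa, H2-Ab1 and H2-Eb1, which encode chains of the peptide-presenting molecules. These 6 genes were chosen by name, and all 6 were among the 12830 genes of the deposited tables and passed the filter on low counts. RNA was sequenced from GFP-positive cells of AML410, a p53-/- shPU.1 leukaemia with a monosomal karyotype, sorted from the bone marrow of leukaemic C57BL/6 recipients. All groups carried the loss of p53 and the hairpin against PU.1, which is linked to GFP and is switched off by Dox. Mice were untreated or received Dox for 2, 4 or 6 days, with 2 libraries per group. The untreated cells were sorted as GFPhigh, those of day 2 as GFPhigh-mid, those of day 4 as GFPmid and those of day 6 as GFPlow. Time on Dox and the GFP gate therefore cannot be told apart, and all libraries come from a single leukaemia. The sample titles call the libraries technical replicates while the series text speaks of duplicate mice, so p-values measure only the spread between these libraries, which may be technical.

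MHC class II molecules are pairs of an alpha and a beta chain that carry peptides from the endosome to the cell surface, where CD4+ T cells read them. The invariant chain joins the new pairs in the endoplasmic reticulum, blocks the peptide groove and sorts the complex to endosomes, where cathepsins cut it down to the short peptide CLIP. H2-DM then removes CLIP and lets other peptides bind, while H2-O holds H2-DM back, chiefly in B cells. The promoters of these genes share short elements, the X and Y boxes, bound by the RFX complex, CREB family factors and NF-Y, on which the coactivator encoded by Ciita assembles. Dendritic cells, macrophages and B cells are the cells best known for class II expression. Spi1 encodes PU.1, which directs transcription in myeloid and B lineage cells.

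Of the members, 5 lie in the class II region of chromosome 17 (RefSeq, GRCm38.p6, the build mm10). From low to high coordinate the region reads H2-DMa (chr17:34119693-34139101), H2-DMb1 (chr17:34153191-34160229), H2-Ab1 (chr17:34263227-34269418), H2-Aa (chr17:34282744-34287823) and H2-Eb1 (chr17:34305867-34316674). From the RefSeq table of promoters, which gives 300 bases around each start, entries for 4 of the 6 members were read. H2-Ab1 had no entry, and Cd74, which lies on another chromosome, was left out of this step. The sequences below are shown because they carry the paired letters of an X box core and a Y box. The motif searched was GNAAC followed after 25 to 26 bases by TGATTGG, on both strands, with no overlap between the 2 elements. It was chosen after these promoters had been read. Capitals mark the 2 elements, and each sequence runs 5′ to 3′ on the gene's strand. H2-Oa, which encodes the alpha chain of H2-O, is given for comparison.
H2-DMb1 (chr17:34153077-34153149, plus strand): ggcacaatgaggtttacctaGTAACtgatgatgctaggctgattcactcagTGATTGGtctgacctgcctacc
H2-Eb1 (chr17:34305756-34305827, plus strand): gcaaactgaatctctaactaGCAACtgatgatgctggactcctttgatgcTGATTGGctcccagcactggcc
H2-Aa (chr17:34287852-34287924, minus strand): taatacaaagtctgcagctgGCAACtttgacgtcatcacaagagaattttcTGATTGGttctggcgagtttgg
H2-Oa (chr17:34092283-34092355, plus strand): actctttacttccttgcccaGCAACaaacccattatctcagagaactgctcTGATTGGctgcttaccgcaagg

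The 2 elements stood 26 bases apart in H2-DMb1, H2-Aa and H2-Oa and 25 bases apart in H2-Eb1. The last base of TGATTGG lay 56 bases before the annotated start in H2-DMb1, 54 in H2-Eb1, 43 in H2-Aa and 38 in H2-Oa. The pair was found in 18 of the 32851 promoters of the table (0.0548%), and 5 of these belong to class II genes, the 4 shown and H2-Eb2. The letters TGATTGG alone were far more common and occurred in 7.82% of promoters. The purine-rich letters GAGGAA, the core of sites that PU.1 is known to bind, occurred on either strand in 28.3% of all promoters and, of the 4 shown, in that of H2-DMb1. The pair was not among the letters of the 2 entries for H2-DMa or of those for H2-DMb2 and H2-Ob. A match is a description of these windows and not a measured binding site.

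The libraries held between 9262047 and 11213292 counts. In replicate 1 of day 2, 1 gene without a symbol took 13.3% of the counts, against 0.0883% to 0.149% in the other libraries, and that library also had the highest summed B cell markers. Of the 12330 genes tested, 516 rose and 240 fell at day 2 against untreated, 3217 and 2707 at day 4, and 3942 and 3897 at day 6. From day 2 to day 4, 2681 rose and 1959 fell, and from day 4 to day 6, 1961 and 1728. These splits depend on the scaling of the libraries. With total counts in place of TMM scaling they became 170 and 658 at day 2, 1816 and 4519 at day 4, 2078 and 6647 at day 6, 1870 and 1921 from day 2 to day 4 and 881 and 2646 from day 4 to day 6. That scaling moved the median log2 fold change of all genes to -0.17, -0.27 and -0.47 in the 3 comparisons with untreated. Of the 12 AML and myeloid markers, 5 rose and 5 fell at day 6, and their sum was 15237 to 17139 CPM untreated, 18168 to 18989 at day 2, 11484 to 11779 at day 4 and 7959 to 8129 at day 6. The granule genes Elane, Prtn3 and Ctsg stood at 8017, 1968 and 5229 CPM untreated and at 2790, 1469 and 545 CPM at day 6. Itgam, the integrin chain CD11b, went the other way from 29.8 to 1677 CPM, Ptprc from 27.3 to 681 CPM and Ly6g from 1.22 to 83.6 CPM. Spi1 itself stood at 10.6 CPM untreated, 15.2 at day 2, 98.4 at day 4 and 223 at day 6.

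Levels below are CPM, the count relative to the TMM-scaled size of its library, as mean ± SD of n = 2 libraries. Fold changes, standard errors (SE) and adjusted p-values come from the edgeR quasi-likelihood test with Benjamini-Hochberg adjustment over all 12330 genes, and a gene was called at an adjusted p under 0.05. The 3 comparisons with untreated share the same 2 control libraries. At day 2, 2 of the 6 members were called higher than untreated, where 4.18% of all genes were called higher. At day 4 the number was 4 of 6, against 26.1% of all genes, and at day 6 it was 6 of 6, against 32% of all genes. No member was called lower at day 2, day 4 or day 6, where 1.95%, 22% and 31.6% of all genes were. None was lower there at an unadjusted p under 0.05 of edgeR, and DESeq2 and limma voom called none lower either. The median log2 fold change of the members was 0.66 at day 2, 1.51 at day 4 and 3.13 at day 6, beside 0.00, -0.02 and -0.04 for all genes.

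**Figure D1:**
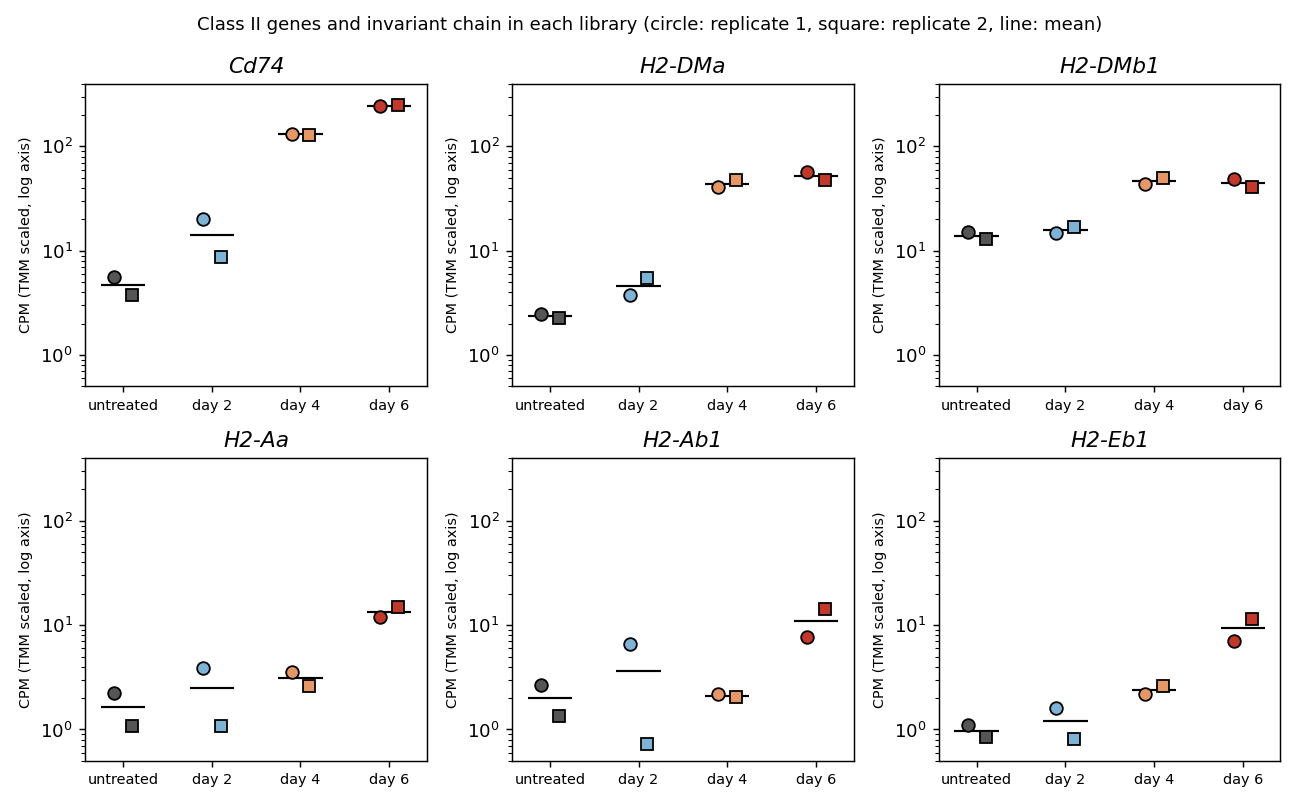
CPM of each of the 6 members in the 8 libraries (log axis, circles for replicate 1, squares for replicate 2 and a line at the mean of the 2), by time on Dox. Cd74 and H2-DMa stand higher in both libraries of day 4 than in all untreated and day 2 libraries, and H2-Aa, H2-Ab1 and H2-Eb1 stand highest in the libraries of day 6.

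Cd74, the invariant chain, had the largest fold change of the members at day 4 and day 6. Its gene spans chr18:60803849-60812652, away from the others. Its level was 5.62 and 3.77 CPM in the untreated libraries, 19.95 and 8.62 at day 2, 132 and 129 at day 4 and 242 and 248 at day 6. The libraries of successive time points did not overlap at any step. At day 4 Cd74 was 27.7-fold higher than untreated (log2 fold change 4.79, SE 0.27, adjusted p = 7.82e-08), and at day 6 it was 52.1-fold higher (5.70, SE 0.27, adjusted p = 9.56e-09). The rise from day 4 to day 6 was smaller, 0.91 on the log2 scale (SE 0.19, adjusted p = 0.0042), and DESeq2 did not call it (adjusted p = 0.0963). The day 2 difference from untreated was 1.56 (SE 0.33, adjusted p = 0.0214). It was 0.88 without replicate 1 of day 2 (adjusted p = 0.037) and was not called without replicate 2 of untreated (1.29, adjusted p = 0.15), with limma voom (adjusted p = 0.0524) or with a fit of these 2 groups alone (adjusted p = 0.0996).

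H2-DMa stood near its day 6 level by day 4. Its level was 2.47 and 2.26 CPM untreated, 3.81 and 5.48 at day 2, 40.5 and 47.7 at day 4 and 56.8 and 47.4 at day 6. Both libraries of day 4 lay above all libraries of the earlier groups, while the groups of day 4 and day 6 overlapped. The log2 fold change against untreated was 4.21 at day 4 (SE 0.19, adjusted p = 1.65e-08) and 4.45 at day 6 (SE 0.19, adjusted p = 4.76e-09), or 18.5-fold and 21.9-fold. From day 4 to day 6 the difference was 0.24 with a 95% interval of -0.05 to 0.53 (adjusted p = 0.195). The day 2 value of 0.99 (SE 0.26, adjusted p = 0.046) lay just inside the threshold. It was not called with total counts (0.82, adjusted p = 0.0691), limma voom (adjusted p = 0.136), a fit of these 2 groups alone (adjusted p = 0.164) or the replicate number as a block (adjusted p = 0.0642). Nor was it called without either untreated replicate, without replicate 2 of day 2 or of day 4, or without either replicate of day 6, where the adjusted p ran up to 0.33. The RefSeq span of H2-DMa overlaps that of Brd2 (chr17:34112019-34122814), and whether the counting used strand is not given in the sources used here. Brd2 itself had a log2 fold change of 0.08 at day 4 and 0.19 at day 6 and was not called at either day.

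H2-DMb1 began from a higher level and had smaller fold changes. Its level was 15.2 and 12.8 CPM untreated, 14.6 and 17.1 at day 2, 43.2 and 49.3 at day 4 and 48.4 and 40.5 at day 6. Untreated and day 2 overlapped, as did day 4 and day 6, and the 2 pairs of groups were well apart. The rise against untreated was 3.30-fold at day 4 (log2 1.72, SE 0.14, adjusted p = 1.23e-06) and 3.18-fold at day 6 (1.67, SE 0.14, adjusted p = 9.84e-07). The day 6 level differed from that of day 4 by -0.06 on the log2 scale, with a 95% interval of -0.33 to 0.22. At day 2 the difference from untreated was 0.19, with an interval of -0.14 to 0.52. Of the 1629 runs of 50 bases in H2-DMb1 transcripts, 369 (22.7%) also occur in transcripts of its neighbour H2-DMb2, so reads could be shared or lost between them.

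The ratio of the 2 H2-DM chains changed with these unequal rises. On the RPKM scale, which divides by the deposited gene length and so allows genes to be compared, H2-DMa stood at 0.268 and 0.290 of H2-DMb1 in the untreated libraries and at 0.427 and 0.528 at day 2. At day 4 the ratio was 1.54 and 1.59, and at day 6 it was 1.93 and 1.92. On this scale H2-DMa was thus the lower of the pair in the untreated and day 2 libraries and the higher in the libraries of day 4 and day 6. The order at day 4 depends on the lengths used, 781 bases for H2-DMa and 1284 for H2-DMb1. In CPM, H2-DMa stood below H2-DMb1 in both libraries of day 4 (40.5 and 47.7 against 43.2 and 49.3) and above it in those of day 6.

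**Figure D2:**
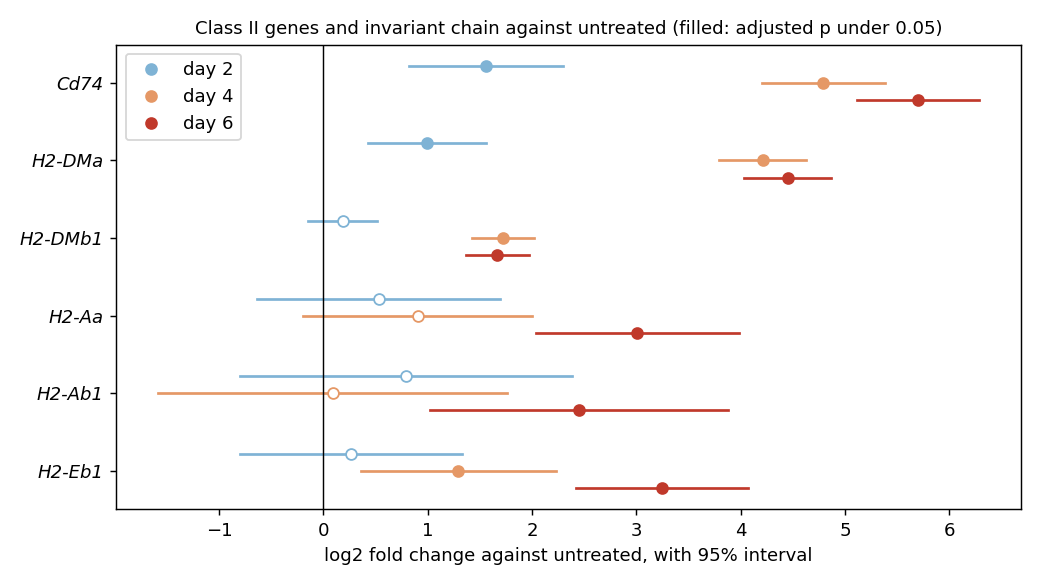
Log2 fold change of each member at day 2, day 4 and day 6 against the same 2 untreated libraries (points, filled where called, with bars for the 95% interval of the edgeR fit). The intervals of Cd74, H2-DMa and H2-DMb1 lie far from 0 at both day 4 and day 6, while those of H2-Aa and H2-Ab1 include 0 at day 4 and lie above it at day 6.

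The alpha and beta chains of the presenting molecules stood lower and were highest at day 6. H2-Aa, the I-A alpha chain, was at 2.21 and 1.09 CPM untreated, 3.92 and 1.08 at day 2, 3.54 and 2.63 at day 4 and 11.9 and 14.8 at day 6. Both libraries of day 6 lay above the 6 others. Against untreated, H2-Aa was 8.06-fold higher at day 6 (log2 3.01, SE 0.44, adjusted p = 0.000107). This value was 3.61 without replicate 1 of untreated. At day 4 the difference from untreated was 0.90 with an interval of -0.20 to 2.01 (adjusted p = 0.16) and at day 2 it was 0.53 with an interval of -0.63 to 1.69. From day 4 to day 6 H2-Aa rose 4.31-fold (log2 2.11, SE 0.41, adjusted p = 0.00293).

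H2-Ab1, the I-A beta chain, was the least even between replicates. Its level was 2.64 and 1.34 CPM untreated, 6.57 and 0.718 at day 2, 2.18 and 2.05 at day 4 and 7.66 and 14.2 at day 6. The day 2 pair spanned the untreated and day 4 libraries, and both libraries of day 6 lay above all others. H2-Ab1 was 5.47-fold higher at day 6 than untreated (log2 2.45, SE 0.65, adjusted p = 0.00629) and 5.14-fold higher than at day 4 (2.36, SE 0.65, adjusted p = 0.019). The first call was lost without replicate 2 of untreated (2.04, adjusted p = 0.056) or replicate 2 of day 6 (1.94, adjusted p = 0.0694). The second was lost without either replicate of day 4 or without replicate 2 of day 6 (1.86, adjusted p = 0.166), and with DESeq2 (adjusted p = 0.0854). At day 4 the difference from untreated was 0.09 with an interval of -1.59 to 1.77, which leaves room for a change in either direction.

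H2-Eb1, the I-E beta chain, was at 1.11 and 0.839 CPM untreated, 1.61 and 0.808 at day 2, 2.18 and 2.63 at day 4 and 7.09 and 11.6 at day 6. These levels rest on few reads, from 9 to 27 counts per library up to day 4 and 63 and 107 at day 6. H2-Eb1 was 9.51-fold higher at day 6 than untreated (log2 3.25, SE 0.38, adjusted p = 1.59e-05) and 3.88-fold higher than at day 4 (1.95, SE 0.33, adjusted p = 0.0014). The day 4 difference from untreated was 1.29 (SE 0.42, adjusted p = 0.0263). It was not called by DESeq2 (adjusted p = 0.0543) or limma voom (adjusted p = 0.0531), nor without either untreated replicate or replicate 2 of day 4. At day 2 the difference was 0.27 with an interval of -0.79 to 1.33. The alpha chain gene of I-E, H2-Ea, was not analysed here, so the level of H2-Eb1 does not show whether an I-E pair was made.

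The steps between successive days set the members side by side. From day 2 to day 4, 3 of 6 members rose, Cd74, H2-DMa and H2-DMb1, and none fell, against 21.7% of all genes that rose and 15.9% that fell. Their log2 fold changes were 3.24 (SE 0.24, adjusted p = 1.08e-06), 3.22 (SE 0.17, adjusted p = 1.28e-07) and 1.54 (SE 0.14, adjusted p = 5.25e-06), and the value of Cd74 was 3.91 without replicate 1 of day 2. H2-Eb1 at 1.02 (adjusted p = 0.0818), H2-Aa at 0.37 (adjusted p = 0.59) and H2-Ab1 at -0.70 (adjusted p = 0.486) were not called. For H2-Aa and H2-Ab1 the sign of this step depended on which day 2 library was kept. A lone library was assumed to vary like those of the other groups. Without replicate 1 of day 2, H2-Aa was at 1.51 (adjusted p = 0.0374) and H2-Ab1 at 1.53 (adjusted p = 0.119), and without replicate 2 they were at -0.34 (adjusted p = 0.57) and -1.63 (adjusted p = 0.0151). From day 4 to day 6, 4 of 6 members rose, Cd74, H2-Eb1, H2-Aa and H2-Ab1, and none fell, against 15.9% of all genes that rose and 14% that fell. Whether members differed from each other in their change at a step was not tested.

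**Figure D3:**
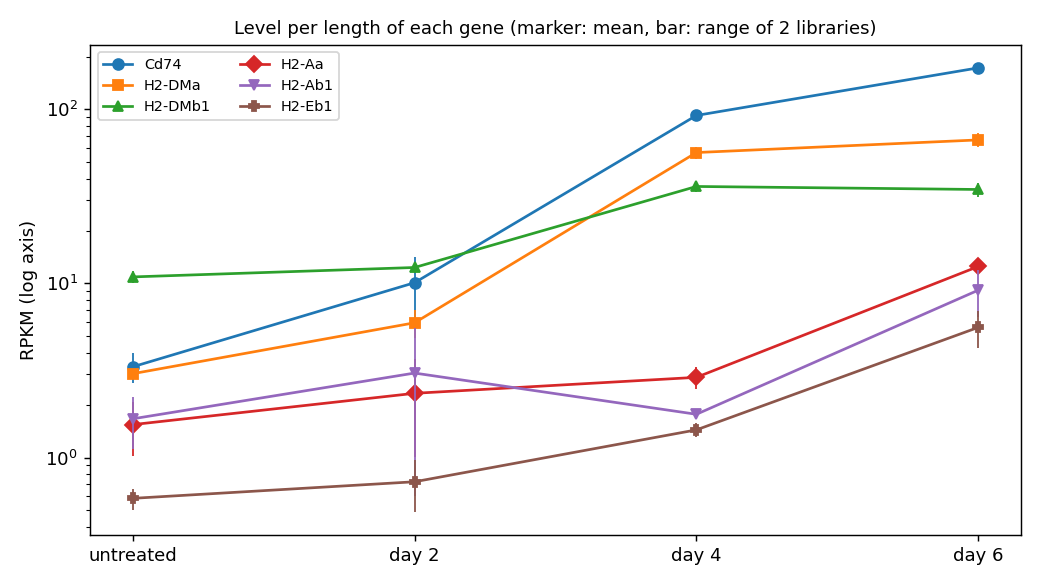
Mean RPKM of the 6 members in the 4 groups (log axis, markers at the mean and bars spanning the 2 libraries), so that members can be compared per length. H2-DMb1 has the highest mean in the untreated and day 2 groups and Cd74 in the day 4 and day 6 groups, while H2-Eb1 has the lowest in all 4.

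Per length, the order of the members changed between day 2 and day 4. In untreated cells the mean RPKM was 10.9 ± 1.28 for H2-DMb1, 3.32 ± 0.923 for Cd74, 3.03 ± 0.186 for H2-DMa, 1.67 ± 0.769 for H2-Ab1, 1.55 ± 0.743 for H2-Aa and 0.583 ± 0.114 for H2-Eb1. The libraries of Cd74 and H2-DMa overlapped there, as did those of H2-Ab1 and H2-Aa. At day 2 the means kept this order, and the libraries of all neighbours overlapped except H2-Aa and H2-Eb1. At day 4 the order was Cd74 at 92.2 ± 1.53, H2-DMa at 56.5 ± 6.52, H2-DMb1 at 36.0 ± 3.38, H2-Aa at 2.89 ± 0.600, H2-Ab1 at 1.77 ± 0.0775 and H2-Eb1 at 1.44 ± 0.193, with no overlap between neighbours. At day 6 it was Cd74 at 173 ± 3.13, H2-DMa at 66.7 ± 8.43, H2-DMb1 at 34.6 ± 4.35, H2-Aa at 12.5 ± 1.90, H2-Ab1 at 9.14 ± 3.85 and H2-Eb1 at 5.59 ± 1.89, and the last 3 ran into each other. The first 3 thus stood above the 3 chains of the presenting molecules in both groups.

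The balance of invariant chain to presenting chains differed between the groups. Cd74 RPKM over the sum of H2-Aa and H2-Ab1 was 0.927 and 1.24 in the untreated libraries and 1.54 and 3.78 at day 2. It was 18.2 and 21.8 at day 4, where Cd74 had risen and the 2 I-A chains were not called, and 9.71 and 6.81 at day 6, where these chains had risen as well. The ratio of H2-Aa to H2-Ab1 stayed between 0.666 and 1.81 in the 8 libraries.

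Other class II genes of the region were also higher at day 4 and day 6. The list held 6 genes, of which 3 were analysed here. All 3 were called higher at both days, beside 26.1% and 32% of all genes. H2-DMb2 had 10 counts over both untreated libraries and 14 at day 2, against 86 at day 4 and 127 at day 6. It passed the filter on low counts through the groups where it was high, so its call was not independent of that filter. H2-DMb2, the other H2-DM beta chain gene, was at 0.426 and 0.419 CPM untreated, 0.807 and 0.628 at day 2, 3.72 and 4.39 at day 4 and 5.97 and 7.997 at day 6 (log2 fold change at day 6 4.01, SE 0.36, adjusted p = 1.74e-06). The H2-O alpha chain gene H2-Oa went from a mean of 1.22 CPM to 5.68 at day 4 and 4.57 at day 6 (log2 2.20, SE 0.29, and 1.89, SE 0.30). H2-Ob, the beta chain gene, was at 1.11 and 0.839 CPM untreated, 6.69 and 0.718 at day 2, 7.63 and 6.73 at day 4 and 9.46 and 10.3 at day 6. Its day 2 libraries were split in the same direction as those of H2-Ab1 and H2-Aa. The class I peptide supply genes that lie between H2-DMb1 and H2-Ob changed little. At day 4 the log2 fold change was 0.34 for Psmb9, 0.29 for Tap1 and 0.58 for Psmb8, all called higher. Tap2 was called lower there (-0.36, adjusted p = 0.0105). At day 6 the log2 fold change was 0.22 for Psmb9, 0.38 for Tap1 and 0.49 for Psmb8, all called, and -0.20 for Tap2 (adjusted p = 0.0969).

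The levels of the presenting chains were read beside markers of other cells that a marrow sort could hold. B cells express class II genes at high levels, and 23 of the 26 B cell markers of the list were measured. Ighm, the immunoglobulin mu heavy chain, ran from 280 to 707 CPM and Cd22 from 9.22 to 20.6 CPM over the 8 libraries. These 2 were taken out of the sum after their values were seen, and the other 21 summed to 134 and 63.1 CPM in the untreated libraries, 251 and 26.2 at day 2, 22.5 and 27.1 at day 4 and 79.7 and 105 at day 6. The summed CPM of H2-Aa, H2-Ab1 and H2-Eb1 was 5.96 and 3.27 untreated, 12.1 and 2.60 at day 2, 7.90 and 7.31 at day 4 and 26.7 and 40.5 at day 6. Within the untreated, day 2 and day 6 pairs, the library with the higher marker sum also had the higher chain sum. The chain sum divided by the marker sum was 0.0446 and 0.0518 untreated and 0.0482 and 0.0993 at day 2. It was 0.351 and 0.270 at day 4 and 0.335 and 0.387 at day 6. Untreated and day 4 overlapped when all 23 markers were summed, of which Ighm made up the larger share in each library. That sum was 550 and 352 CPM untreated, 878 and 444 at day 2, 654 and 755 at day 4 and 615 and 629 at day 6. The chain sum over it was 0.0108 and 0.00928 untreated, 0.0138 and 0.00586 at day 2, 0.0121 and 0.00969 at day 4 and 0.0434 and 0.0644 at day 6. With either sum the ratio was higher in both libraries of day 6 than in those of untreated and day 2. The markers in the sums did not move together. Igll1 was at 17.6 CPM untreated and 6.01 at day 6, and Ms4a1 was at 0.843 and 3.07 CPM. The ratio therefore also depends on the mix of markers summed. Replicate 1 of day 2 had the highest marker sum by either count, with a chain sum of 12.1, and both day 6 libraries had higher chain sums with lower marker sums.

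Few single B cell markers were called against untreated. At day 4, 2 of 23 were higher and 4 lower, where 26.1% of all genes were higher and 22% lower, with a median log2 fold change of -1.71. At day 6, 5 were higher and 2 lower, where 32% and 31.6% of all genes were, with a median of 0.24. From day 2 to day 4 the median was -2.52, with 10 of 23 lower and none higher, where 15.9% and 21.7% of all genes were. From day 4 to day 6 it was 1.87, with 3 of 23 higher and none lower, where 15.9% and 14% of all genes were. The median thus rose from day 4 to day 6, the step in which H2-Aa, H2-Ab1 and H2-Eb1 were called higher. The surrogate light chain gene Igll1 fell from 17.6 to 6.01 CPM at day 6 (log2 fold change -1.55, adjusted p = 0.0037). Dntt, the terminal transferase of V(D)J joining, rose from 0.635 to 7.72 CPM (log2 3.58, SE 0.57, adjusted p = 0.000197). Cd79a, a signalling chain of the B cell receptor, was at 8.01 CPM untreated and 6.09 at day 6 and was not called. In bulk samples fewer cells of a type and less RNA per cell cannot be told apart. The part of B lineage RNA in the class II values was not tested.

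**Figure D4:**
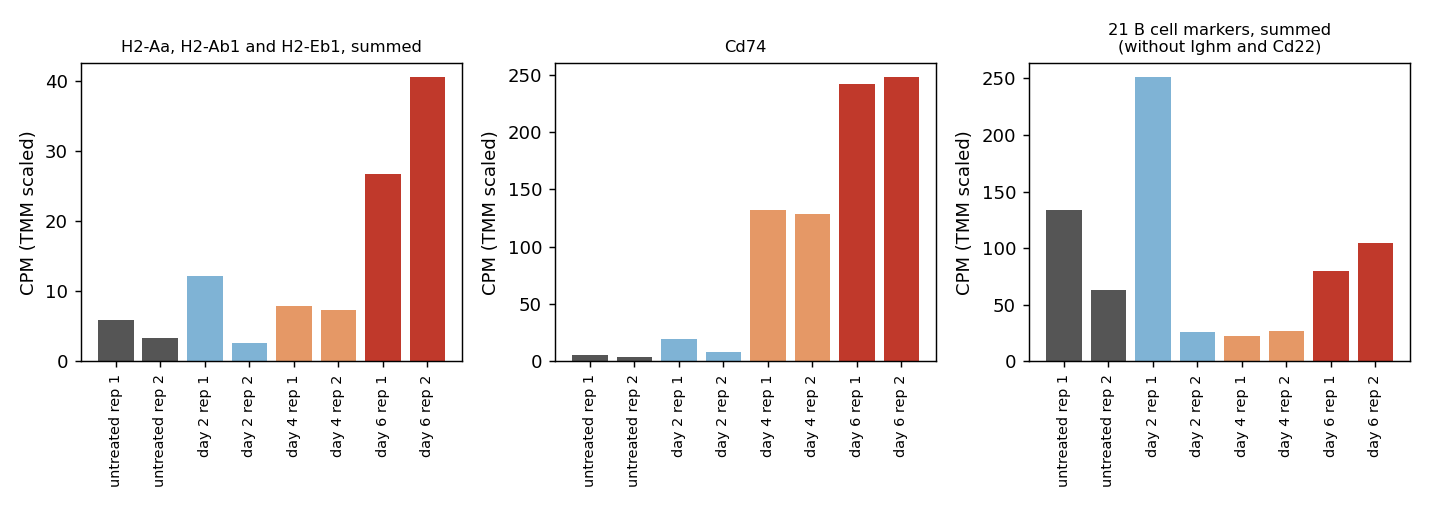
Summed CPM of H2-Aa, H2-Ab1 and H2-Eb1, CPM of Cd74, and summed CPM of the 21 B cell markers without Ighm and Cd22, in each of the 8 libraries (bars from 0, 1 bar per library). The B cell markers are highest in replicate 1 of day 2, at 251 CPM, while the chains and Cd74 are highest in the 2 libraries of day 6.

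Markers of macrophages and monocytes rose along with the members. Of 24 such markers 19 were measured. At day 2, day 4 and day 6, 10, 15 and 18 were called higher, beside 4.18%, 26.1% and 32% of all genes. Cd163 was the 1 called lower at day 4 and at day 6, where 22% and 31.6% of all genes were. The summed level of the 19 was 6023 to 6759 CPM untreated, 8563 to 9416 at day 2, 25300 to 26769 at day 4 and 33295 to 33639 at day 6. Ly6c2, at 4771 CPM, made up most of that sum in the untreated group, and Lyz2 was its largest part at day 6. Csf1r, the growth factor receptor of macrophages, went from 35.7 to 979 CPM at day 6. Lyz2, the lysozyme gene, went from 876 to 19055 CPM. Markers of dendritic cells (16 of 21 measured) summed to between 155 and 195 CPM in every library, but single markers moved. At day 6, 6 of 14 tested were higher and 5 lower than untreated, where 32% and 31.6% of all genes were. Their median log2 fold change was 1.10. Runx2 fell from 82.2 to 46.1 CPM and Tcf4 from 52.3 to 42.9 CPM. Ffar2 rose from 2.88 to 49.7 CPM, Clec10a from 0.933 to 12.1, Kmo from 0.339 to 9.26 and Clec9a from 0.212 to 3.59, while Itgax, at 0.0839 to 1.51 CPM, was below the filter. Of 16 T and NK cell markers 6 were measured, and they summed to 454 to 667 CPM up to day 4 and 303 to 312 CPM at day 6, with Cd28 and Nkg7 making up most of it. The part of these cells in the class II values was not tested.

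The factors that bind class II promoters had small fold changes. Of the 9 genes on that list 8 were tested, and Ciita was not analysed here. At day 2 their log2 fold changes ran from -0.31 for Rfxank to 0.17 for Creb1, neither of them called. At day 6, 4 of 8 were higher and 3 lower, beside 32% and 31.6% of all genes. Nfya was higher by 0.62 on the log2 scale (SE 0.08), Creb1 by 0.54, Nfyc by 0.31 and Atf1 by 0.28. The 3 genes of the RFX complex were lower, with log2 fold changes of -0.50 for Rfx5 (adjusted p = 0.00648), -0.50 for Rfxank (adjusted p = 0.0136) and -0.43 for Rfxap (adjusted p = 0.00298). The NF-Y subunit gene Nfyb was at 0.20 (adjusted p = 0.0536). The median of the list was 0.24 at day 6, beside -0.04 for all genes.

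Of 14 regulators upstream of class II expression, 1 was higher at day 2, close to the 4.18% of all genes. At day 4, 10 were higher and 1 lower, beside 26.1% and 22% of all genes, and at day 6, 11 were higher and 2 lower, beside 32% and 31.6%. Irf5, an interferon regulatory factor of myeloid cells, rose from 17.2 to 417 CPM at day 6 (log2 4.60, SE 0.17). Spi1 rose by 4.39 (SE 0.14), and Bcl6, a repressor, by 2.12 (SE 0.35). Of the interferon gamma pathway, Ifngr2 rose by 1.95 (SE 0.09) and Jak2 by 1.58 (SE 0.09). Irf8, a factor that pairs with PU.1, stood at 1428 CPM untreated and fell by 1.24 at day 6 (SE 0.12, adjusted p = 3.56e-06), and Ifngr1 fell by 0.41 (adjusted p = 0.00578). Irf4, at 3.73 CPM untreated and 2.42 at day 6, was not called there and was the gene called lower at day 4.

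The enzymes that process antigen and invariant chain rose nearly as a whole. Of 14 genes, 6 were higher at day 2, 14 at day 4 and 13 at day 6. Of all genes, 4.18%, 26.1% and 32% were higher. None of the 14 was lower, where 1.95%, 22% and 31.6% of all genes were. The median log2 fold change of the 14 was 1.86 at day 6. Ctss encodes cathepsin S, which makes the late cuts in the invariant chain. It was at 35.5 and 29.0 CPM untreated, 38.3 and 59.1 at day 2, 526 and 583 at day 4 and 840 and 793 at day 6 (log2 4.66 at day 6, SE 0.17, adjusted p = 1.93e-09). Lgmn, the asparaginyl endopeptidase, rose by 3.53 (SE 0.18) and Ifi30, the endosomal thiol reductase, by 1.88 (SE 0.10). Cst3, the cathepsin inhibitor cystatin C, rose by 2.45 (SE 0.09), Asah1 by 2.37 and the cathepsin gene Ctsc by 2.33. Sppl2a, the protease that cuts the last membrane stub of the invariant chain, rose by 1.03 (SE 0.10). Ctsl, the cathepsin of thymic epithelium, was at 183 CPM untreated and 187 at day 6 and was not called there (0.04, adjusted p = 0.786).

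Of 14 genes for the traffic and turnover of class II molecules, 2 were higher at day 2, 6 at day 4 and 9 at day 6. Of all genes, 4.18%, 26.1% and 32% were higher. None of the 14 was called lower, where 1.95%, 22% and 31.6% of all genes were. Marchf1 encodes the ubiquitin ligase that sends surface class II to lysosomes. It was at 5.53 and 2.35 CPM untreated, 4.04 and 7.63 at day 2, 101 and 117 at day 4 and 188 and 177 at day 6 (log2 5.53 at day 6, SE 0.24, adjusted p = 5.83e-09). The tetraspanin gene Cd9 rose by 1.60 (SE 0.17) and Cd82 by 0.93 (SE 0.09), and the lysosomal membrane genes Lamp2 and Lamp1 rose by 1.25 and 1.02. Cd63 (0.21, adjusted p = 0.0587), Cd37 (0.16, adjusted p = 0.0887) and Arl14ep (0.16, adjusted p = 0.151) were not called at day 6.

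The invariant chain also serves at the cell surface as the receptor for the cytokine MIF. Mif was at 39.3 CPM untreated and 10.98 at day 6 and fell by 1.84 on the log2 scale (SE 0.14, adjusted p = 6.27e-07), and its relative Ddt fell by 0.83 (SE 0.13). The partner receptors rose. Cd44 rose by 2.52 (SE 0.08), Cxcr2 by 3.23 (SE 0.19) and Cxcr4 by 0.33 (SE 0.07). Of 8 costimulation genes tested, 6 were higher and 1 lower at both day 4 and day 6, beside the same shares of all genes as above. Cd48 rose from 2.87 to 111 CPM (log2 5.26, SE 0.13), Icam1 by 4.43 (SE 0.26), Cd40 by 2.98 (SE 0.23) and Icosl by 2.51 (SE 0.11). Cd274, which encodes the inhibitory ligand PD-L1, fell by 0.81 (SE 0.15, adjusted p = 0.000509). Cd80 and Cd86 were called higher from 1 and 2 untreated counts in all and stood at 3.74 and 6.19 CPM at day 6. These 2 genes are among the 6 counted above. They passed the filter on low counts only through groups where they were high, so their calls were not independent of that filter. Slamf7 was at 0.42 (adjusted p = 0.674).

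**Figure D5:**
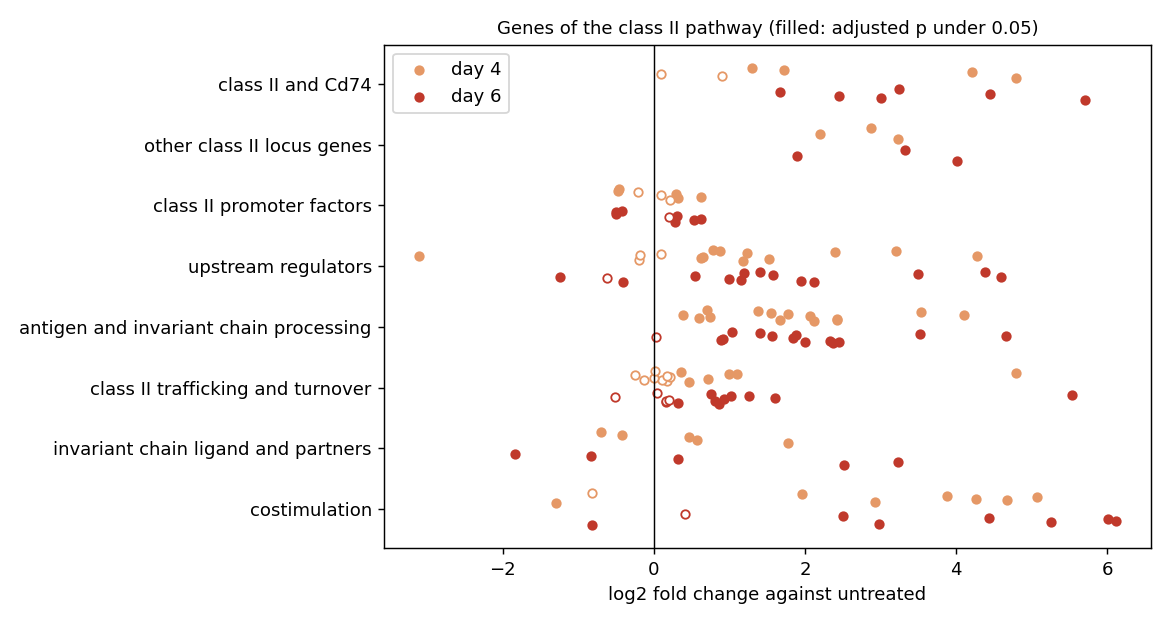
Log2 fold change at day 4 and day 6 against untreated of each tested gene of the members and of the 7 pathway lists (1 point per gene, filled where called, spread vertically for visibility). All 6 members lie above 0 and are called at day 6, and the promoter factors are split into 4 higher and 3 lower, all near 0.

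Genes with a pattern most like that of a member were ranked by Pearson's r of log2(CPM + 1) over the 8 libraries, among 9156 genes of sufficient level. Each value describes 8 points in 4 groups that share the time course. Likeness in r does not mean a change of like size. For Cd74 the highest were Arpc1b (r = 0.996), Pilra (0.996) and Sys1 (0.995), whose log2 fold changes at day 6 were 0.65, 3.52 and 0.68 beside 5.70 for Cd74. For H2-DMa they were Pld4, Irf5 and Slc15a3 (each 0.999), whose log2 fold changes at day 6 were 4.51, 4.60 and 4.58 beside 4.45 for H2-DMa. For H2-DMb1 they included Fcgrt (0.996) and Dpep2 (0.996), at 1.55 and 1.78 beside 1.67. The chains of the presenting molecules had other genes. H2-Eb1 was most like Gba2 (0.996), Smg9 (0.993) and Vasp (0.990), among 9157 genes, at 1.32, 0.77 and 1.60 beside 3.25. H2-Aa was most like Slc35d2 (0.974), Tnfsf13b (0.973) and Mea1 (0.969), at 0.52, 1.07 and 0.22 beside 3.01. H2-Ab1 was most like Pla2g4a (0.951), Neu1 (0.949) and Lrr1 (0.942), at 0.40, 0.30 and 0.28 beside 2.45, and Lrr1 was not called. Among the members themselves, r was 0.974 between Cd74 and H2-DMa and 0.992 between H2-DMa and H2-DMb1. It was 0.961 between H2-Eb1 and H2-Aa and 0.932 between H2-Aa and H2-Ab1, but 0.442 between H2-DMa and H2-Ab1.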

How the data were processed

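RNA from 8 libraries was compared. Per the file headers, the authors deposited 1 table per library with Entrez gene ID, gene length and a raw count, a whole number without normalisation. The build mm10, featureCounts and CASAVA 1.8.2 are named in the submitters' processing notes, beside edgeR 3.8.2 and limma 3.22.0. For the aligner and for strand the entry is: not given in the sources used here. The third highest CPM of every one of the 12830 genes is at least 0.501, so genes active in a single group may have been dropped before deposit. RefSeq symbols matched 12555 IDs, and the others, with 2.24% of counts, were tested under their ID. Genes were filtered with filterByExpr, which removed 500, and scaled with TMM. The edgeR 4.0.16 quasi-likelihood test in R 4.3.3 used a group means model over all 8 libraries, with Benjamini-Hochberg adjustment calling genes at 0.05. Replicates had a biological coefficient of variation of 8.34%. Libraries of a group differed by more than counting noise, so no library was treated as a duplicate. RPKM was computed from the deposited length, and the likeness used a pseudocount of 1 and an average log2 CPM of at least 3. Runs of 50 bases came from GENCODE transcripts. The script was tested on simulated data.

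The members and lists were chosen with earlier results of these data known. Named were all members and, from each list, up to 5 called genes with the largest day 6 change, up to 2 called against the list's direction, up to 3 uncalled genes with the highest level and, for marker lists, the highest genes. The genes Nfyc, Atf1, Ifi30, Sppl2a, Cd40, Cd80, Cd86, Cd79a, Dntt, Clec10a, Clec9a, Kmo, Itgax, Elane, Prtn3, H2-DMb2, H2-Oa, H2-Ob, Psmb9, Tap1, Psmb8, Tap2 and Brd2 fall outside this rule and were named for their function, their place in the genome or because few made up a count, after their values were seen. Some genes that the rule names are not reported here. Alternatives were RLE factors, total counts, no filter, DESeq2 1.42.0, limma 3.58.1 voom, the 2 groups compared alone, the replicate number as a block, and leaving out each library.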

Additional observations from a re-analysis of the deposited data

How the results depend on the processing

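Of 450 fold changes of members recomputed under the alternatives, 413 kept their direction and their side of the threshold, 25 lost the call, 2 gained one and 10 reversed. The day 4 calls of Cd74, H2-DMa and H2-DMb1 and the day 6 calls of all members but H2-Ab1 held in every alternative run.
At day 2 the number of members called higher, 2 as reported, was 1 with total counts, 0 with limma voom, 0 with only the 2 groups compared and 0 to 2 when 1 library was left out, and the count of all genes was 232 with only the 2 groups and 325 to 1325 when 1 library was left out, against 756. From day 4 to day 6 DESeq2 called 2 members higher in place of 4, and the count of all genes was 1726 to 4193 when 1 library was left out, against 3689. From day 2 to day 4 the number of members called lower was 0 to 1 when 1 library was left out. The cause was not tested.
All reversals were of values not called. H2-Ab1 at day 4 was -0.16 with total counts, and from day 2 to day 4 it was 0.11 with limma voom. When 1 library was left out, the day 2 values ran from -0.26 to 0.73 for H2-Eb1, -0.61 to 1.25 for H2-Aa and -1.45 to 1.72 for H2-Ab1, the lowest each without replicate 1 of day 2, and H2-Ab1 at day 4 ran from -0.32 to 0.66. From day 2 to day 4 the ranges were -0.34 to 1.51 for H2-Aa and -1.63 to 1.53 for H2-Ab1, and from day 4 to day 6 the range was -0.19 to 0.074 for H2-DMb1.
With the replicate number as a block, 1 member was called at day 2, since H2-DMa had an adjusted p of 0.0642 at 0.99, and no other member's call changed. The deviations of same-numbered libraries from their group means correlated at -0.144 to 0.185 over the pairs of groups, so the numbers were not taken as pairs.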
